A study of Mus musculus with 127 samples.

Results

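Cell28 is 1 of 10 nuclei of F123 mouse embryonic stem cells that were cut into consecutive thin sections and mapped by sequential genome architecture mapping. The account covers the 8 nuclear profiles labelled Cell28, out of 122 profiles of nuclei, and its members were taken as every autosomal window in the 2 position files of that nucleus. Those files placed 150697 autosomal windows of 10 kb, out of 1132635 over all 10 nuclei. The nucleus was selected on its windows per slice, its gene content per slice and its coverage of chromosome 14, so those measures are described without a test. Its working name said that gene content follows slice yield. In the data the relation is the inverse one, with fewer protein-coding genes per window in the slices that held more windows.

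All groups were untreated F123 cells, labelled as strain CAST x 129, grown with LIF on feeder cells and passaged off the feeders before use. Cell28 belongs to batch B18F together with Cell25, Cell26, Cell27, Cell38 and Cell39, and the other nuclei, Cell17, Cell18, Cell19 and Cell20, belong to batch B16F. The series also holds 4 positive controls and 1 negative control, which have no position file and entered no comparison. Each nucleus is 1 cell, so Cell28 has no replicate, and the spread given beside its values is that of the other 9 nuclei. The exact permutation test used here to set 1 nucleus against the other 9 cannot give a p below 0.1. The tissue label could not be checked against marker expression, because only genomic DNA was measured.

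In genome architecture mapping, DNA from a thin section through a nucleus is amplified and sequenced, and loci that lie close together tend to turn up in the same sections. When the sections of 1 nucleus are kept in order, each locus can also be placed along the cutting axis. Chromosomes in interphase nuclei occupy territories, and gene-rich and gene-poor chromatin tend to lie in different parts of the nucleus.

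Each file gave a window 1 position on an axis whose unit is not named. In Cell28, 102360 windows, 67.9% of the total, lay on a grid of 8 positions spaced by 0.2 axis units, the same number as the profiles. These grid positions, at 0.994, 1.19, 1.39, 1.59, 1.79, 1.99, 2.19 and 2.39, are called slices 1 to 8 from the low end. The labels do not say which profile is which slice. The other nuclei also had as many grid positions as profiles, except Cell18 and Cell38. Cell18 had 17 grid positions for 16 profiles and Cell38 had 11 for 10, so a grid position is not always 1 profile. In Cell28 the remaining 48337 windows, 32.1%, lay between grid positions, against 11.5% to 37.1% in the other nuclei. Of these windows of Cell28, 9.43% lay exactly midway between neighbouring grid positions. Windows off the grid overlapped 0.4999 protein-coding genes on average, and windows on the grid 0.508.

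Cell28 was among the more fully covered nuclei. File 1 held 81329 windows and file 0 held 69368, a ratio of 1.17, against ratios of 0.948 to 3.41 in the other nuclei. The total was 150697 windows, the second highest of the 10, where the other nuclei held 52534 to 172914 with a median of 106936. The files of Cell28 together reached 116015 distinct windows, 47.1% of the autosomal genome, against 19.05% to 51.9% in the other nuclei. Both files listed 34682 of these windows, 1.51 times the number expected from independent files, against 1.29 to 2.50 times elsewhere. Of the windows in both files, 38.6% had the same position in each, the second lowest share of the 10, where the other nuclei had 13.04% to 66.8%. Among the 15774 shared windows that lay on the grid in both files, 84.7% fell in the same slice, 5.71% were 1 slice apart and 9.64% were farther apart. What the files stand for is not given in the sources used here.

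The windows of Cell28 were spread unevenly over its slices. Slices 1 to 8 held 21574, 11986, 26400, 20537, 5784, 5457, 7373 and 3249 windows. Slices 1 to 4 were each larger than any of slices 5 to 8. The split into 4 thin slices (5 to 8) and 4 full slices (1 to 4) was made after these counts were seen. The thin slices held 21863 windows, 21.4% of those on the grid, and the full slices 80497, or 78.6%. The fullest slice, slice 3, held 8.13 times as many windows as the emptiest, slice 8, and 5.296 times as many when windows listed in both files were left out. The ratio over all windows was the second lowest of the 10 nuclei, which otherwise ran from 4.06 in Cell19 to 89.7 in Cell18, and the lowest of batch B18F, whose other nuclei had 12.2 to 68.03. Each file showed the same split, with slices 1 to 4 at 5604 to 11957 windows in file 0 and 6382 to 14443 in file 1, and slices 5 to 8 at 1405 to 3224 in file 0 and 1844 to 4149 in file 1.

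Gene content ran against these yields. Slices 1 to 8 overlapped 0.511, 0.522, 0.482, 0.488, 0.535, 0.564, 0.525 and 0.592 protein-coding genes per window. The 2 lowest values belonged to slices 3 and 4, and the highest to slice 8, the emptiest. The Spearman correlation between windows and genes per window over the 8 slices was -0.976, and it was -0.952 in each file taken alone. The thin slices averaged 0.547 genes per window and the full slices 0.497, a ratio of 1.10. In file 0 the thin slices averaged 0.554 and the full slices 0.503, and in file 1 the thin slices averaged 0.542 and the full slices 0.492. The spread over single windows was far wider than these differences, with an SD of 0.578 to 0.974 genes per window within a slice.

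**Figure D1:**
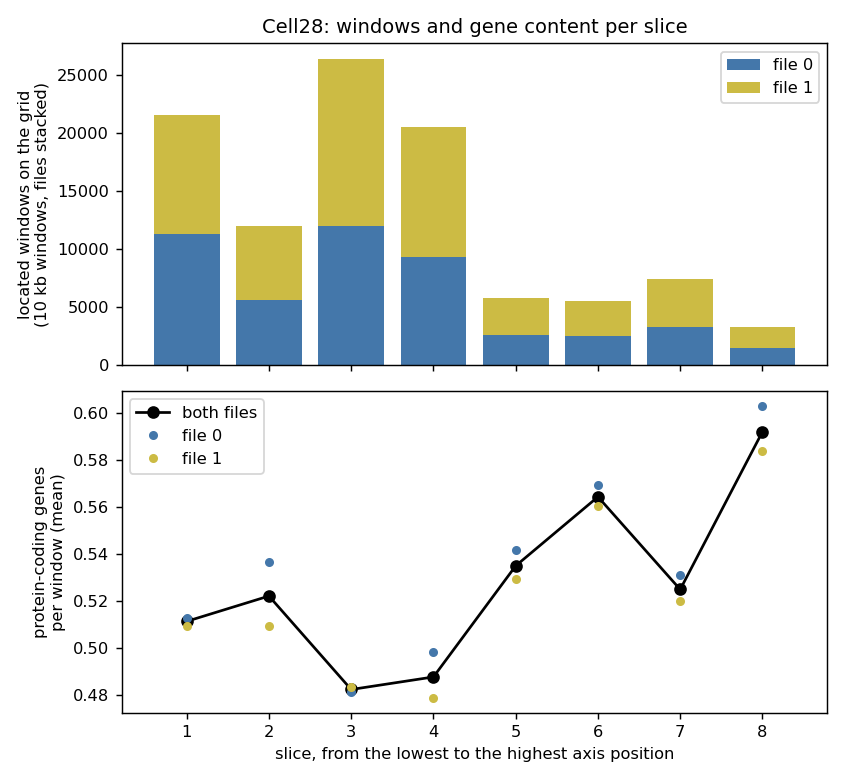
Windows on the grid in each slice of Cell28, stacked by file (top), and mean protein-coding genes per 10 kb window in the same slices, for both files together in black and for each file in colour (bottom). Slices 5 to 8 held 3249 to 7373 windows and 0.525 to 0.592 genes per window, and slices 1 to 4 held 11986 to 26400 windows and 0.482 to 0.522 genes per window.

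A similar order appeared when a window was counted only for holding a gene or not, with a Spearman correlation of -0.929 with yield. The share of windows that overlap a protein-coding gene was 47.9%, 48.3%, 44.9%, 44.8%, 48.9%, 51.5%, 48.8% and 52.1% in slices 1 to 8. Slices 6 and 8 were the only slices above 50%, and slices 3 and 4 the only slices below 45%. Counting gene starts in place of overlaps gave a Spearman correlation of -0.905 with yield. The high mean of slice 8 included 5 windows that each overlapped more than 5 genes, up to 24, of which 4 lay on chromosome 18. That chromosome holds the clustered protocadherins, neural adhesion genes whose many variable exons share a locus. Slices 1, 3, 4, 5 and 6 also held windows with more than 5 genes, at 2, 3, 3, 1 and 3. Of these, 2, 3, 2, 1 and 3 lay on chromosome 18. Without such windows slice 8 averaged 0.563 genes per window and slice 6 averaged 0.557, and the correlation with yield stayed at -0.976. Slice number and yield also moved together, with a Spearman correlation of -0.810, and slice number correlated with gene content at 0.738, so the place along the axis and the yield cannot be told apart fully in 8 slices.

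Gene content of the thin slices was also higher within most chromosomes. The thin slices had more genes per window than the full slices on 16 of 19 autosomes, the exceptions being chromosomes 4, 12 and 14. Chromosome 11 had 0.710 genes per window in thin slices and 0.543 in full slices, and chromosome 19 had 0.700 in thin slices and 0.594 in full slices. On chromosome 14 the thin slices had 0.484 and the full slices 0.495. Slices 5 to 8 lay above a chromosome's own mean on 13, 15, 12 and 18 of the 19 autosomes, and slices 1 to 4 on 7, 10, 2 and 6. Within single chromosomes the relation over 8 slices was looser, with a mean Spearman correlation of -0.42 over the 19 autosomes.

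In the other 9 nuclei the correlation between slice yield and gene content ran from -0.679 in Cell26 to 0.1 in Cell38, with a mean of -0.32 ± 0.28 (SD, n = 9). Cell28 had the lowest value of the 10, both over all nuclei and within batch B18F. These correlations are over 7 to 23 grid positions and describe each nucleus. The ratio of gene content between low-yield and high-yield slices did not single Cell28 out: it was 1.10 in Cell28, 1.16 in Cell27, 1.09 in Cell26 and 0.988 to 1.06 in the remaining nuclei. The difference between the slices richest and poorest in genes was 0.109 genes per window in Cell28, within the 0.032 to 0.207 of the other nuclei. The range of Cell28 was thus not the widest. Its lowest correlation comes with its selection on these measures, so it is a description. Slice numbers and yields also differ between nuclei, so the correlations do not compare regularity on equal terms.

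**Figure D2:**
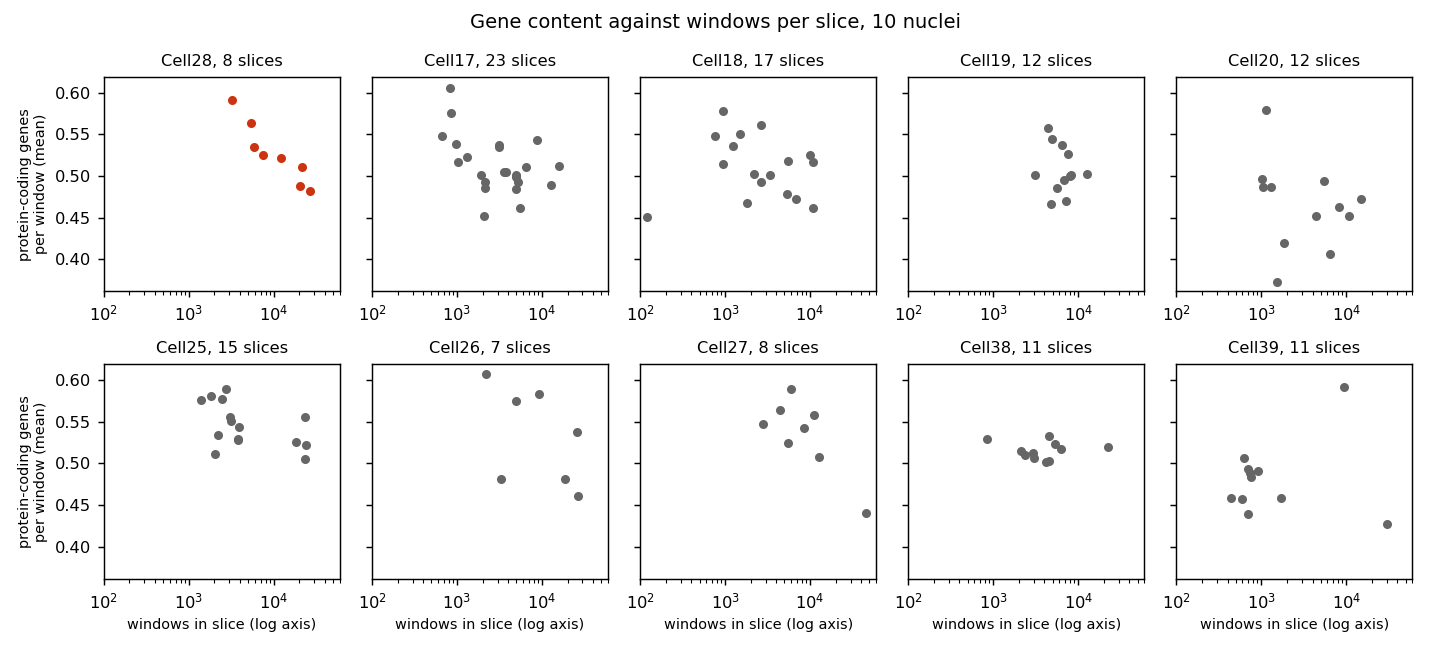
Mean protein-coding genes per window against the number of windows in the slice (log axis), 1 panel per nucleus and 1 point per grid position, with Cell28 at the top left in red. The points of Cell28 fall from 0.592 genes per window at 3249 windows to 0.482 at 26400 windows, with a Spearman correlation of -0.976, whereas the other nuclei range from -0.679 to 0.1.

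With each distinct window counted once, the located part of the genome was slightly poor in genes. Located windows overlapped 0.492 protein-coding genes on average, windows that were not located 0.511, and all autosomal windows 0.502. Counted once per file, as in the slice means, located windows averaged 0.505, so the sign depends on the counting. The promoter GC content was nearly the same in located and not located windows. RefSeq promoters, taken from 250 bases before to 50 bases after a transcription start, were matched for 16457 of 20665 autosomal protein-coding genes. Where a gene had several promoters the first listed was used, and its start can differ from the gene start. Their GC content was 56.4% ± 11.2 (SD) for the 8216 promoters in a located window and 56.1% ± 12.1 for the 8241 others. Slices 1 to 8 had mean promoter GC contents of 55.5%, 57.8%, 56.02%, 56.3%, 56.6%, 57.6%, 57.3% and 57.2%. Slices 2 and 6 were highest and slice 1 lowest, and the Spearman correlation with yield was -0.619, within the -0.80 to 0.25 of the other nuclei. The GC content of the windows themselves was not analysed here.

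The full and the thin slices also differed in texture. When the next 10 kb window along the chromosome was also on the grid, it lay in the same slice in 73.6%, 43.5%, 62.1% and 68.2% of cases for slices 1 to 4, and in 11.8%, 13.01%, 14.4% and 8.70% for slices 5 to 8. A slice that holds more windows meets itself more often, so each share was divided by the slice's own share of windows. The quotients were 3.49, 3.71, 2.41 and 3.40 in slices 1 to 4, and 2.09, 2.44, 1.9998 and 2.74 in slices 5 to 8. Neighbouring windows thus shared a slice more often than its size alone gives in all 8 slices, with 3 of the 4 full slices above every thin slice and slice 3 below slices 6 and 8.

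The chromosome composition showed the same split. Thin slices held 6.01 windows per Mb on chromosome 14 to 10.4 on chromosome 7, a ratio of 1.72 between the extremes. Full slices held 19.6 per Mb on chromosome 13 to 53.5 on chromosome 14, a ratio of 2.73. The coefficient of variation of window density over the 19 autosomes was 10.2% to 19.1% in slices 5 to 8 and 39.1% to 65.1% in slices 1 to 4. Over the thin slices together it was 13.5%, where the other nuclei had 10.96% to 101.6% in their low-yield slices, and over the full slices together it was 25.4%, against 9.71% to 33.3%. Windows per Mb in thin and in full slices had a Spearman correlation of -0.554 over 19 autosomes, points that share the same libraries. Each file gives a window 1 position, so a window placed in a full slice is not left for a thin one. That favours a negative value by construction, so nothing is read from the sign.

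Chromosome 14 was the most densely covered autosome of Cell28. Its window density was 1.64 times that of all autosomes together, at 1.63 in file 0 and 1.66 in file 1. In the other 9 nuclei the same chromosome stood at 0.840 to 1.47, with a median of 1.05, and in the other nuclei of batch B18F at 0.840 to 1.18. Cell28 was thus above all other nuclei, the nearest being Cell18 at 1.47 and Cell20 at 1.27, both of batch B16F. At least 1 file located 69.4% of the windows of chromosome 14. The next densest chromosomes of Cell28 were chromosome 19 at 1.28, chromosome 15 at 1.22 and chromosome 12 at 1.18. The sparsest were chromosome 13 at 0.661, chromosome 6 at 0.685 and chromosome 3 at 0.734. Besides chromosome 14, Cell28 lay outside the range of the other nuclei on chromosome 19, where they reached 0.546 to 1.06, and on chromosome 6, where they reached 0.917 to 1.37.

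**Figure D3:**
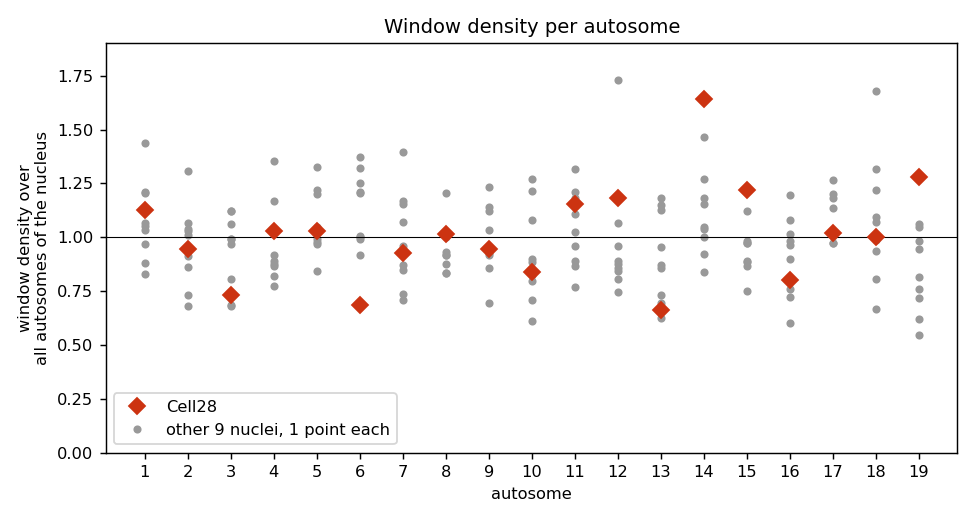
Windows per Mb of each autosome over windows per Mb of all autosomes of the nucleus, with Cell28 as red diamonds and each of the other 9 nuclei as a grey point. Cell28 stands at 1.64 on chromosome 14, above the 0.840 to 1.47 of the other nuclei, and at 0.685 on chromosome 6, below their 0.917 to 1.37.

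Among windows on the grid, the surplus of chromosome 14 sat in slices 1, 3 and 4. The 40.9% of its windows between grid positions belong to no slice, and they had a density of 2.10 relative to all autosomes. Relative to all autosomes in the same slice, its density was 1.48, 0.949, 2.11 and 1.59 in slices 1 to 4, and 0.723, 0.766, 0.580 and 0.661 in slices 5 to 8. Slice 3 had the highest value, and in slices 5, 7 and 8 chromosome 14 was the sparsest autosome of all. Slices 5 to 8 together gave 0.676 and slices 1 to 4 together gave 1.64. Each file gives a window 1 position, so windows placed in full slices or between grid positions cannot also count in thin slices. This lowers the thin-slice values of a densely covered chromosome by construction, and by how much was not tested. Of the chromosome's windows on the grid, 38.0% lay in slice 3, 22.4% in slice 4 and 21.8% in slice 1, while no thin slice held more than 2.92%.

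Windows of chromosome 14 in both files had a density of 2.22 relative to all autosomes, and windows in 1 file only a density of 1.15. A chromosome that is dense in each file has more windows in both by construction, so these values are given as a description. Windows between grid positions had a density of 2.10 and windows on the grid 1.43, and 40.9% of the windows of chromosome 14 lay off the grid, against 26.3% to 36.5% on the other autosomes. Windows in both files were 1.24 times as many as the chromosome's own coverage in each file would give, the lowest such ratio of the 19 autosomes, which otherwise had 1.38 to 1.61. This ratio has a lower ceiling on a densely covered chromosome, so nothing is read from its rank. When 1 Mb bins with at least 1 window were counted in place of windows, the relative density of chromosome 14 was 0.999. Of its 1 Mb bins 97.6% held a window, against 97.7% over all autosomes.

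Segments of the chromosome ran from 1.01 to 2.20 times the autosomal density. All 24 segments of 5 Mb past the start of the chromosome had a density above 1, with 22 above 1 in file 0 and 23 in file 1. The lowest was 1.01 at chr14:70000001-75000000, the median was 1.78 and the highest was 2.20 at chr14:20000001-25000000. At 1.5 times the autosomal density or more stood 14 of the 24 segments, beside 12.3% of all 472 autosomal segments. At 1.5 times the median of the other nuclei or more stood 13, beside 16.1% of all segments, and above each of the other nuclei stood 14, beside 13.3%. The chromosome was chosen for its coverage, so nothing is read from these counts. The share of all autosomal segments above 1 was not counted, so the counts above 1 have no background. The segment farthest above the other nuclei was chr14:115000001-120000000, at 2.14 in Cell28 against a median of 0.773, which holds Gpc5, Gpc6 and Sox21.

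Within chromosome 14 the denser segments were those with more genes. The Spearman correlation between segment density and genes per window was 0.794 over the 24 segments, which share their libraries. It was the highest of the 19 autosomes of Cell28, whose median was 0.31, and in the other 9 nuclei chromosome 14 had -0.157 to 0.674. The 4 segments poorest in genes had densities of 1.05 to 1.39, below the chromosome's median of 1.78. The segments from 105000001 to 115000000, with 0.044 and 0.008 genes per window, had densities of 1.19 and 1.24, and chr14:85000001-90000000, with 0.132 genes per window, had 1.05. The segment chr14:80000001-85000000, with 0.026 genes per window, had 1.39 and lay above each of the other nuclei, which reached at most 1.29. The segment at 70000001 to 75000000, with 0.386 genes per window, was lower still at 1.01. Over all 472 autosomal segments of Cell28 the correlation was 0.22.

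Several stretches of chromosome 14 were led by 1 slice, meaning the slice with the largest excess of windows over its overall share. Slice 1 led from 15000001 to 30000000, with 488 of 1057 windows on the grid, or 46.2%. Slice 4 led from 35000001 to 50000000 with 352 of 882, or 39.9%, although slice 3 held about as many windows in part of this stretch. Slice 3 led from 75000001 to 90000000 with 516 of 900, or 57.3%, and again from 115000001 to the end with 339 of 712, or 47.6%. The leading slice thus changed several times along the chromosome. Copies of a chromosome were not told apart, so such a change can mix copies.

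Genes fixed for description on chromosome 14 numbered 27, and 26 of them overlapped a located window, where 77.1% of all protein-coding genes did. The chromosome itself had 69.4% of its windows located, against 47.1% over all autosomes. Of the 23 genes with a window on the grid, 2 lay mainly in a thin slice (Otx2 and Fgf9, a growth factor), where 20.8% of all such genes did. Of the chromosome's own windows on the grid, 10.1% lay in thin slices, so the genes stood near their chromosome. Fgf9 rested on 1 window in file 0. Ties went to the lower slice, so Wnt5a, Rb1 and Zic2, each split evenly between a full and a thin slice, counted as full. The heparan sulfate proteoglycans Gpc5 and Gpc6, long neighbouring genes, had different slices. Gpc5 had 81 of its 135 placements on the grid in slice 3, and Gpc6 had 68 of 114 in slice 1. Nrg3, a neuregulin that signals through an ErbB receptor, had 51 of 67 in slice 4. Pcdh9, a protocadherin, had 24 of 37 in slice 1. Klf12, a zinc finger transcription factor, had 20 of 37 in slice 1. The cell-surface proteins Slitrk1, Slitrk5 and Slitrk6, which lie in the gene-poor part, had all their 3, 2 and 4 placements on the grid in slice 4. Gata4, a cardiac and endodermal transcription factor, had 5 of 7 in slice 1. Zic2, a zinc finger factor of neural development, had 2 of its 4 placements in slice 3 and the others in slice 8. Its mean position of 1.89 in both files lies between these slices. Its neighbour Zic5 was the only one of the 27 that was not located. Bmp4, a signalling ligand, was located in both files but only between grid positions, at 1.63 in file 0 and 1.55 in file 1.

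Promoters of 4 of these genes are shown because each lay in a window that both files put in the same slice, and because the slices differ. They are given 5′ to 3′ on the gene's strand from RefSeq (GRCm38.p6, the coordinates of mm10), with CG dinucleotides in capitals. The letters CG read the same on both strands. Pcdh17, a protocadherin, lay in slice 2 at chr14:84443313-84443612 on the plus strand. Sox21, a SOX-family transcription factor, lay in slice 3 at chr14:118236981-118237280 on the minus strand. Slitrk6 lay in slice 4 at chr14:110755100-110755399 on the minus strand. Otx2, a homeodomain factor of the anterior epiblast and brain, lay in slice 6, a thin slice, at chr14:48667595-48667894 on the minus strand.
Pcdh17: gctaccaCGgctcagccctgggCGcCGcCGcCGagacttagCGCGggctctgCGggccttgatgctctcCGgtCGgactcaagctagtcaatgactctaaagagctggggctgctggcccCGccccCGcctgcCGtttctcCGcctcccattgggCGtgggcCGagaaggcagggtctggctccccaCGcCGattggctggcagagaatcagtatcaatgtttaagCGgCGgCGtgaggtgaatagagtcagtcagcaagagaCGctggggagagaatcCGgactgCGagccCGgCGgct
Sox21: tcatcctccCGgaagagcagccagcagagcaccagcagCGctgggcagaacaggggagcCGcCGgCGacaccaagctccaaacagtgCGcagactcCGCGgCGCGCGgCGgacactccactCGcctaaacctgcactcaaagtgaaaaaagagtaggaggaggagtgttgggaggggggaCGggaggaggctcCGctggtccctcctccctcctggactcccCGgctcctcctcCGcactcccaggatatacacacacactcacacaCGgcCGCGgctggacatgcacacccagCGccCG
Slitrk6: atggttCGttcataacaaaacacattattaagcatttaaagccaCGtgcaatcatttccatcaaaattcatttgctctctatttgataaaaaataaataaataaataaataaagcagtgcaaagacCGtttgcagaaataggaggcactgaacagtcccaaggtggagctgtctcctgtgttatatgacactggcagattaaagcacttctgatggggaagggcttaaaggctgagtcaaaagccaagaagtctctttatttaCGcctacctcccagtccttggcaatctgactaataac
Otx2: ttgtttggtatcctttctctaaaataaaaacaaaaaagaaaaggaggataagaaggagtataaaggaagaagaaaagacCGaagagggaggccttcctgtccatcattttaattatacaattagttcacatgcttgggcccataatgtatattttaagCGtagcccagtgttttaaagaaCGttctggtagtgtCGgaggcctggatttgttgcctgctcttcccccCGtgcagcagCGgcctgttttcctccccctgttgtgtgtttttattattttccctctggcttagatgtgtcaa
The promoters of Pcdh17 and Sox21 held 26 and 22 CG dinucleotides at 65% and 65.7% GC. Those of Slitrk6 and Otx2 held 4 and 6 at 38.3% and 41.7% GC. Over all matched promoters 95.0% held at least 1 CG, with a median of 14. The 4 promoters are examples and not a sample of their slices.

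The autosomes of Cell28 were centred at closely spaced positions. The lowest mean positions belonged to chromosome 15 at 1.35, chromosomes 1 and 8 at 1.38 each and chromosome 14 at 1.41. The highest belonged to chromosome 16 at 1.58, chromosome 13 at 1.57, chromosome 6 at 1.56 and chromosome 18 at 1.55. The span of 0.221 axis units was 15.8% of the axis, where the other nuclei had 5.79% to 26.7%. Positions within a chromosome spread much more widely, with an SD of 0.275 on chromosome 19 to 0.4003 on chromosome 7. Copies of a chromosome were not told apart, so its mean and SD can mix them. The mean position had a Spearman correlation of 0.025 with genes per window and of -0.044 with length over the 19 autosomes. It had a correlation of 0.681 with the share of the chromosome's windows in thin slices, which lie at the high end of the axis.

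The files of Cell28 ordered the autosomes alike. Mean positions in file 0 and file 1 had a Spearman correlation of 0.875, and 14 of 19 autosomes differed by at most 2 ranks. The other nuclei had 0.747 to 0.930, and Cell28 did not stand apart (exact permutation test over 10 nuclei, two-sided, p = 0.8). Windows listed in both files raise this value. Without them it was 0.589 in Cell28 and -0.047 to 0.905 in the other nuclei (exact permutation test, two-sided, p = 0.7). File 1 put chromosome 1 higher than file 0 by 0.094, the largest difference, at 1.42 in file 1 and 1.33 in file 0. Chromosome 15 went the other way, at 1.32 in file 1 and 1.40 in file 0. The mean absolute difference was 0.040 axis units.

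**Figure D4:**
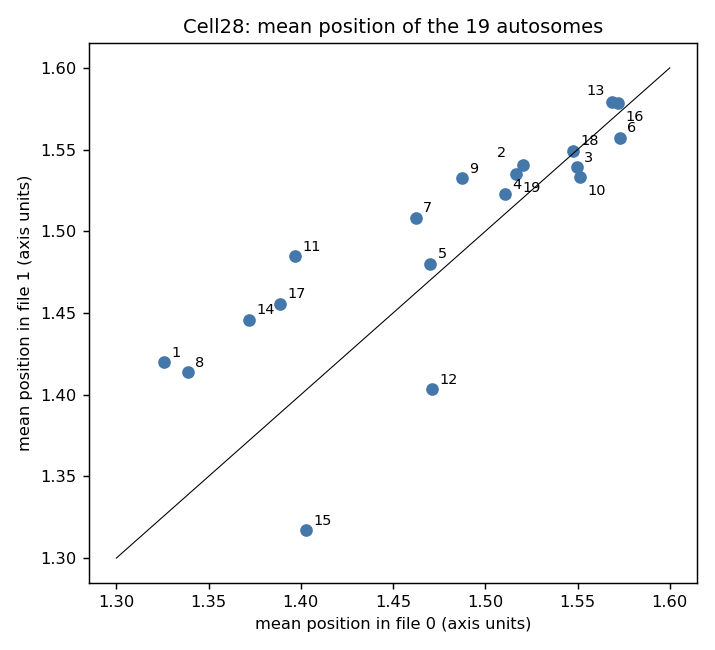
Mean position of each of the 19 autosomes of Cell28 in file 0 and in file 1, in axis units, with the line of equal positions. Chromosomes 1, 8 and 14 lie toward the low end and 16, 13 and 6 at the high end in both files, chromosome 15 lies below the line and chromosome 1 above it, and the Spearman correlation is 0.875.

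The chromosome means were spread more widely within the full slices than within the thin ones. Means from full slices alone had a Spearman correlation of 0.751 with the means over all windows. The share in thin slices also entered those means, at 34.2% on chromosome 13 and 32.9% on chromosome 6, against 21.4% overall. In slices 1 to 4 alone the chromosome means spanned 0.263 axis units, from 1.18 for chromosome 1 to 1.44 for chromosome 19. In slices 5 to 8 alone they spanned 0.032. Chromosomes 8 and 1 had 43.7% and 41.1% of their windows on the grid in slice 1, against 21.1% of all windows. Chromosome 15 had 33.7% in slice 1 and 20.7% in slice 2. Chromosome 5 had 23.7% in slice 2, against 11.7% overall. Chromosomes 18 and 14 had 39.3% and 38.0% in slice 3, against 25.8% overall. Chromosomes 16, 19, 10 and 3 had 42.6%, 41.3%, 37.1% and 29.4% in slice 4, against 20.1% overall.

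**Figure D5:**
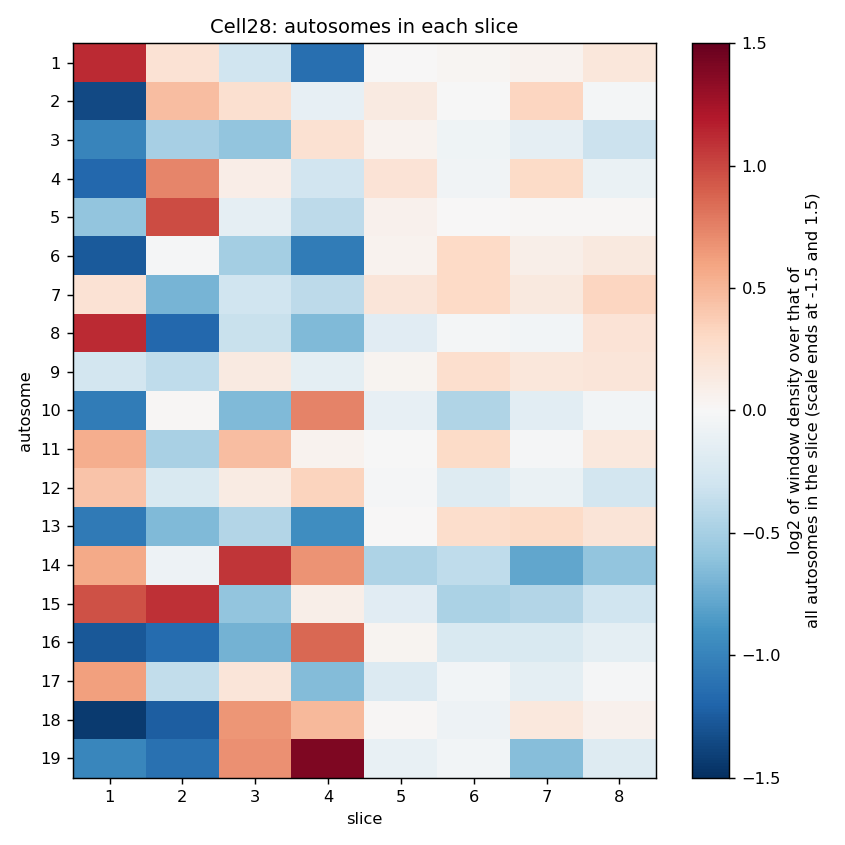
Window density of each autosome in each slice of Cell28 over that of all autosomes in the slice, on a log2 scale where red is denser. Chromosomes 1 and 8 stand out in slice 1, 15 and 5 in slice 2, 14 in slice 3 at 2.11 times and 19 in slice 4 at 2.65 times, while slices 5 to 8 are pale, with a highest value of 1.25 times.

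Pairs of chromosomes shared slices to different degrees. The overlap of their slice shares, the sum over slices of the smaller share, had a median of 78.3% over 171 pairs. Chromosomes 6 and 13, the sparsest, overlapped by 93.7%, with 95.9% in file 0 and 90.9% in file 1. Chromosomes 1 and 8 overlapped by 92.5%, with 91.9% in file 0, 91.8% in file 1 and 92.1% without windows in both files. Chromosomes 2 and 4 had the highest overlap, 94.9%, with 92.5% in file 0 and 85.8% in file 1. Chromosomes 11 and 12 reached 92.6% together but only 76.99% in file 0 and 78.98% in file 1. A high overlap of whole chromosomes can go with unlike segments. The mean correlation of their 5 Mb segment profiles over the slices was 0.540 for chromosomes 6 and 13 and 0.354 for 2 and 4. It was 0.178 for chromosomes 1 and 8 and 0.019 for 11 and 12. The lowest overlaps were those of chromosome 19 with chromosomes 1, 15 and 8, at 53.3%, 57.3% and 57.8%.

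On the scale of 5 Mb, neighbouring segments tended to share a slice. Of 475 adjacent segments on the same autosome, 147 had the same leading slice, or 30.9%, against 12.4% for segments of different autosomes. The difference of 18.6 percentage points was the fourth highest of the 10 nuclei, where the others had 7.18 to 21.2 (exact permutation test over 10 nuclei, two-sided, p = 0.7). The profile of a segment over the 8 slices had a median correlation of 0.575 with its neighbour. For segments 10 Mb apart the median was 0.495 and for those 20 Mb apart 0.488, and it fell further to 0.245 over 50 Mb and to 0.160 over 100 Mb. For segments of different autosomes it was 0.062 over 107379 pairs of 8 points each. The files gave the same leading slice to 45.1% of 477 segments, against 12.9% from the slice shares, and to 27.9%, against 12.7%, without windows in both files.

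Long runs of segments with 1 leading slice lay on several chromosomes. The longest was on chromosome 3 from 5000001 to 55000000, led by slice 4 with 916 of 1977 windows on the grid, or 46.3%. Slice 4 also led on chromosome 10 from 55000001 to 90000000, with 46.4%, and on chromosome 16 from 40000001 to 70000000, with 52.8%. Slice 1 led on chromosome 8 from 65000001 to 90000000, with 66.7%, and on chromosome 17 from its start to 25000000, with 63.5%. Single segments reached further. In chr8:75000001-80000000, 300 of 356 windows on the grid lay in slice 1, or 84.3%. Slice 2 was strongest in chr15:50000001-55000000, with 134 of 243 windows, or 55.1%. Slice 3 was strongest in a segment of chromosome 18, with 262 of 309, or 84.8%, and chr14:75000001-80000000 was its rank 3 segment, with 225 of 352, or 63.9%. Slice 4 was strongest in the last segment of chromosome 19, with 70 of 95, or 73.7%, followed by chr16:75000001-80000000, with 150 of 227, or 66.1%. The leading segments of slices 5 to 8 held only 17 to 37 windows of the slice each, 10.1% to 21.9% of the segment, so their place is weakly determined.

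Some segments of different chromosomes had closely matched slice profiles. The segments chr1:25000001-30000000 and chr8:25000001-30000000 were both led by slice 1, with 63.3% and 69.6% of their windows there, and correlated at r = 0.986 over the 8 slices, at 0.877 in file 0, 0.880 in file 1 and 0.849 without windows in both files. The segments chr14:45000001-50000000 and chr9:40000001-45000000 correlated at 0.994, led by slices 4 and 3, with 0.883 in file 0, 0.881 in file 1 and 0.734 without windows in both files. The segments chr17:70000001-75000000 and chr19:35000001-40000000 were both led by slice 3, with 42.3% and 43.5%, and correlated at 0.988, at 0.819 in file 0, 0.640 in file 1 and 0.858 without windows in both files. Correlations above 0.9 made up 0.970% of the pairs between chromosomes and 4.80% of adjacent pairs. With 8 points and 107379 pairs, the top pairs are a description of these files, and a shared slice says nothing about distance within the slice.

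Of the 20665 autosomal protein-coding genes, 15935 overlapped a located window of Cell28, or 77.1%, the second highest share of the 10 nuclei, where the others had 42.2% to 79.4%. Of the 14237 with a window on the grid, 2958 lay mainly in a thin slice, or 20.8%. Gene lists differed in both shares, and short genes meet fewer windows than long ones. Ties between a full and a thin slice counted as full, which can lower the thin shares. Solute carriers, membrane transporters, were located for 314 of 362 genes, or 86.7%, and 75 of 289 on the grid, or 25.95%, lay in thin slices. Zfp zinc finger genes were located for 292 of 388, or 75.3%, and 65 of 266, or 24.4%, lay in thin slices.

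Several families lie in clusters of related genes. Olfactory receptors, the odorant receptors of the nose, were located for 523 of 1104 genes, or 47.4%, and 62 of 399 on the grid, or 15.5%, lay in thin slices. Vomeronasal receptors, which detect pheromones, were located for 220 of 352, and 18 of 161 lay in thin slices, or 11.2%. Replication-dependent histones were located for 25 of 67, or 37.3%, and 13 of the 21 on the grid lay in thin slices, 10 of them in slice 7. Clustered protocadherins were located for 40 of 57, or 70.2%, and 33 of the 40 on the grid lay in thin slices, 21 of them in slice 8. The defensins, antimicrobial peptides, were located for 56 of 71, or 78.9%, with 31 of the 49 on the grid in slice 1. Genes of such families share a few loci, so each list counts loci several times.

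Ribosomal and proteasome genes lie scattered over 15 to 18 chromosomes. Cytosolic ribosomal proteins were located for 36 of 71, or 50.7%, with 6 of 27 in thin slices, and mitochondrial ribosomal proteins for 44 of 78, with 11 of 36. Proteasome subunits were located for 40 of 50, with 15 of 39 in thin slices, or 38.5%. Hox genes, which pattern the body axis from 4 clusters on 4 chromosomes, were located for 32 of 39, with 8 of 26 in thin slices. Keratins were located for 35 of 49, with 3 of 29.

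Core pluripotency genes were located for 9 of 12, and 2 of the 9 lay mainly in thin slices, shares close to those of all genes. Klf4, a Krüppel-like transcription factor, lay in slice 1 in both files, at 0.994. Tfcp2l1, a factor of naive pluripotency, lay in slice 1 in all 6 of its placements on the grid. Esrrb, an orphan nuclear receptor, had 15 windows in file 0 with a mean position of 1.40 and 11 in file 1 with 1.10. Nanog, a homeodomain factor, lay at 1.39 in file 1 and 1.19 in file 0, in neighbouring slices. Pou5f1, the POU factor at the centre of the pluripotency network, was located in file 0 only, at 1.39. Dppa3, a maternal-effect gene, was located in file 1 only, in slice 7 at 2.19. Sox2, Tbx3 and Zfp42 were not located. Apart from Esrrb, with 17 windows, and Tfcp2l1, with 7, each of the genes named here spans 2 windows. No read count stands behind a position, so its error is unknown.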

How the data were processed

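Per the labels' protocols, the genomic DNA of every nuclear profile went through whole-genome amplification before Illumina sequencing. Trim Galore 0.6.4, Bowtie2 2.3.5, Picard and mm10 are named in the submitters' processing notes. The way reads were turned into positions, and the meaning of file 0 and file 1, are not stated in the labels or headers. Per the file headers, a deposited file has 1 line for each 10 kb window, ending in its axis position. That position has no named unit and is neither a count nor a normalized value. The files carry no read counts, so the depth is unknown and no counting interval is given.

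A window counted as on the grid within 1e-06 of a multiple of 0.2 above the lowest position. Windows of both files were added, and copies of a chromosome were not told apart. Window density is windows per Mb over that of all autosomes. Gene content is the number of RefSeq protein-coding genes (GRCm38.p6, whose coordinates are those of mm10) that overlap a window, averaged over windows. Means of located and not located windows, and segment densities, start 3 Mb into each chromosome. Chromosome length is the end of the last located window in any file. Segments of 5 Mb needed 50 windows on the grid for a leading slice and 100 for pair correlations, and a segment density needed a segment of 2.5 Mb or more. A gene's main slice is that with most of its windows, and ties went to the lower slice. A tie between a full and a thin slice therefore counted as full. Each nucleus gave 1 value. Exact permutation tests were two-sided over the 10 choices of 1 nucleus, and these p-values measure only the spread between these nuclei. The nucleus, the gene lists and the named genes (12 pluripotency genes, 27 on chromosome 14, 12 name-pattern lists, the 3 leading segments of each slice and the 10 closest segment pairs) were chosen with earlier results of these data known. Not every pair is printed. Scripts used Python 3.11.15, numpy 2.4.6, pandas 2.3.3 and matplotlib 3.10.9, and were tested on simulated data.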

Additional observations from a re-analysis of the deposited data

Results flagged for a closer look

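None of the values in this paragraph that stood apart from the other nuclei by Dixon's criterion belongs to Cell28. Over 36 measures it marked 4 values, in Cell38, Cell39 and Cell26, and chance marks about 1 in 20. Cell38 had the lowest share of windows in both files with the same position, at 13.04%. Cell39 had a coefficient of variation of chromosome density of 101.6% in its low-yield slices, and a density of chromosome 12 of 1.73. Cell26 had a density of chromosome 8 of 1.21. These nuclei set the ends of ranges given above.

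The sex chromosomes entered no comparison. In Cell28 the files placed 5836 windows on chromosome X, 0.558 times the autosomal density, with 2586 in file 0 and 3250 in file 1. On chromosome Y they placed 4232 windows, 0.761 times the autosomal density, with 1945 in file 0 and 2287 in file 1. The other nuclei had 0.444 to 1.24 times the autosomal density on X and 0.223 to 1.08 times on Y.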

How the results depend on the processing

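Of 62 alternative settings, 49 moved a value by less than the SD over the 10 nuclei, 11 moved it by more and 2 turned it to the other side of 1. The inverse relation of gene content and yield lay between -1 and -0.964 when each slice was left out in turn, and at -0.42 as the mean of within-chromosome values. The density of chromosome 14 was 1.64 over all windows and 1.15 without windows in both files. On windows on the grid only it was 1.43, and leaving out each slice in turn from these gave 1.19 (without slice 3) to 1.496, with 1.39 without slice 4. It turned below 1 for distinct 1 Mb bins (0.999) and in slices 5 to 8 only (0.676, chosen after seeing the data). Of 1 Mb bins, 97.6% of chromosome 14 and 97.7% of all autosomes held a window, so that measure leaves little room for a difference. For the other settings the cause was not tested. File agreement of chromosome order was 0.589 without shared windows. The excess of adjacent segments was 24.9 points with 2 Mb segments and 27.6 with the leading slice taken as the one with most windows, chosen after seeing the data. The share of genes located was 57.8% in file 0, 63.3% in file 1, 64.2% without shared windows and 50.5% by the window of the gene start. The ratio of fullest to emptiest slice ran from 5.296 without shared windows to 10.4 with windows between grid positions given to the nearest one, and the span of chromosome means from 0.166 to 0.262. The SD over nuclei is 28.1 for the ratio and 0.194 for the span, too wide for these 2 values to be judged by it. Settings that left out chromosome 18 or windows with more than 5 genes were added after seeing the data. No paired analysis was possible because each nucleus is 1 cell and profile numbers pair nothing across nuclei. Depth per window is unknown, which limits single-window positions.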
